A study of Mus musculus with 15 samples.

Results

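The genes described here were those whose mRNA in mouse knee joint synovium was highest at mild joint swelling in collagen-induced arthritis (CIA). They were chosen from the measured values: on every mild array the gene's signal exceeded its highest signal on the naive, moderate and severe arrays, and the 100 genes with the largest mild mean minus the highest mean of another group were taken. Of 18194 genes with a single symbol, 125 (0.687%) met that range condition, and 100 of the 124 left after Rrad was set aside are the members. Il6, which was also to be left out, did not meet the condition. The 15 arrays came from 5 groups of 3: naive healthy mice, and mice with collagen-induced arthritis whose knees had no, mild, moderate or severe swelling. Collagen-induced arthritis is an autoimmune model in which mice are immunized against the collagen of cartilage, here with 100 µg of type II collagen in FCA on day 0 and another 100 µg given i.p. on day 21. Strain, sex, age and sampling day were not given in the sources used here, and nothing stated whether each array held 1 animal or a pool, so the p-values below measure the spread between these samples only. The groups are stages of swelling and not times in 1 animal.

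Joint inflammation in this model draws neutrophils and macrophages into the synovium, activates the lining fibroblasts, and alters the muscle and fat that border the capsule. Cells limit such a response with negative feedback: inhibitors of calcium and cytokine signalling, protease inhibitors, anticoagulant receptors and chaperones. Stretched or injured muscle raises its own stress genes, among them small heat shock proteins and ankyrin repeat proteins of the sarcomere.

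Each array reported a signal intensity for 45101 probe sets, scaled by its makers to a trimmed mean of 150, with array medians of 36.3 to 47.6. Signals below are intensities in those arbitrary units, and differences are on the scale of log2(signal + 16), which understates the change of dim genes. The first principal component of all genes tested held 70.2% of the variance, with group means of -63.8 in naive joints, -55.0 without swelling, 15.6 at mild, 50.6 at moderate and 52.5 at severe swelling. Mild replicate 2 lay at -7.34, nearer the naive end than the other mild arrays at 18.5 and 35.7. Summed signals of the synovial lining markers Prg4, Cdh11 and Pdpn were 2352 to 3116 in naive joints and 7656 to 9846 at mild swelling, so the labelled tissue was present. Muscle was present too: 7 skeletal muscle markers, Acta1, Ckm, Myh1, Myh2, Myh4, Myh7 and Des, summed to 33627 to 39051 at mild swelling, against 50132 to 58156 in naive joints. The neutrophil markers were S100a8, S100a9, Csf3r, Cxcr2 and Ngp. They summed to 123 to 149 in naive joints, 396 to 2958 without swelling, 4017 to 8534 at mild, 6409 to 10110.0 at moderate and 8381 to 11562 at severe swelling. This sum was at its highest after the members' peak. It was carried mostly by S100a8 and S100a9, with means of 2153 and 2572 at mild swelling. Ngp went another way, with means of 66, 277, 95.4, 340 and 105 from naive to severe swelling. In bulk tissue, fewer cells of a type and less RNA per cell cannot be told apart. The geometric mean of the hybridization controls averaged 722 in naive joints, 822 without swelling, 463 at mild, 529 at moderate and 511 at severe swelling. The 3′ to 5′ signal ratio of actin averaged 0.98 ± 0.08 in naive joints, 1.10 ± 0.05 without swelling and 1.16 ± 0.03 at mild swelling. It was higher again at moderate (1.23 ± 0.04) and severe swelling (1.25 ± 0.03; SD, n = 3 each). The part of these shifts in the results was not tested beyond the rescaling reported below.

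The peak was high for a few members and low for most. The mild mean exceeded the highest other group mean by 0.08 to 1.5 on the log2 scale, with a median of 0.38; that distance is called the gap. In 8 members the gap was at least 1, in 33 it was at least 0.5, and in 21 it was under 0.2. The lowest mild array stood only 0.00 to 0.88 above the highest naive, moderate or severe array, with a median of 0.09. Mild swelling exceeded naive by a median of 0.62 and severe swelling by a median of 0.68. The group next below mild was no swelling in 37 members, moderate swelling in 36, naive in 14 and severe swelling in 13. These values chose the members and are given as a description, with no test. At the edge of the choice, ranks 98 to 100 were Rpf2, Rap1a and 5730480H06Rik with a gap of 0.08 each, and the next 3 ranks, outside it, were Slu7 and Ddx19b with 0.06 and Arid1b with 0.05. RefSeq classed 92 members as protein-coding and 7 as long non-coding RNA, and 1 member was not matched.

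**Figure D1:**
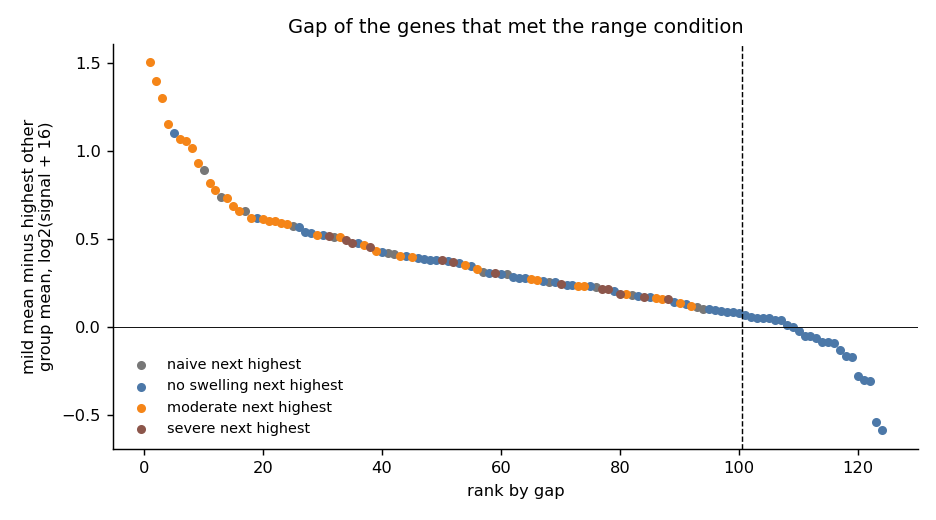
Gap of the 124 genes that met the range condition, against rank; the y axis is the mild mean minus the highest other group mean in log2(signal + 16), colours name the group next below mild, and the dashed line follows rank 100. The gap runs from 1.5 at Gm13889 to 0.08 at rank 100, and no-swelling arrays are next below mild in 37 members.

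Of the members, 89 lay above the signal filter and could be tested between the other groups, in a limma fit over 14310 genes; the other 11 were too dim. The rule held naive, moderate and severe arrays below the mild ones but did not order them among themselves. After the peak the members divided. At moderate swelling against naive, 16 of 89 rose (18%, against 30.8% of all genes tested) and 8 fell (8.99%, against 23.7%). At severe swelling against naive, 14 rose (15.7%, against 32.2%), 17 fell (19.1%, against 22.9%) and 58 were not called. All of these arrays had to lie below the mild ones to meet the rule, so the shares called are shaped by the choice and nothing is read from their distance to those of all genes. The median severe minus naive difference was 0.00 for members and 0.11 for all genes. By both comparisons together, 13 members rose at both grades, 7 fell at both, 10 fell at severe swelling only, 3 rose at moderate swelling only, 1 rose at severe swelling only, 1 fell at moderate swelling only, and 54 were called at neither. A call at 1 grade and not at the other does not show that the grades differ. The 8 that fell at moderate swelling became 3 without moderate replicate 2 or without moderate replicate 3, 4 without naive replicate 2 or without naive replicate 3, and 5 without naive replicate 1, without mild replicate 1 or without mild replicate 3. The 17 that fell at severe swelling became 10 without naive replicate 3 and 11 without severe replicate 1 or without severe replicate 3. When the arrays were rescaled on the hybridization controls, which moved the median severe minus naive difference of all genes to 0.53 and of moderate minus naive to 0.47, no member fell at moderate and 1 at severe swelling.

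**Figure D2:**
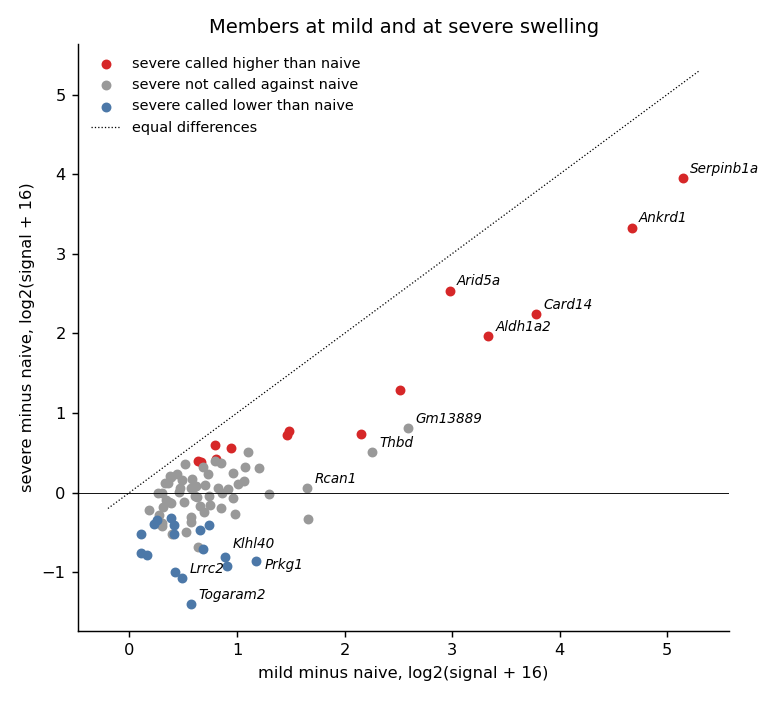
Severe minus naive (y axis) against mild minus naive (x axis) for the 89 members above the signal filter, both as mean differences in log2(signal + 16), coloured by the limma call of severe against naive. Members lie below the dotted line of equal differences, as the rule requires; Serpinb1a, at 5.15 and 3.95, keeps most of its rise, Rcan1, at 1.65 and 0.05, lies near naive, and Togaram2, at 0.58 and -1.40, lies under it.

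Among the signalling members, the calcium pathway gene Rcan1 had the fourth largest gap. Rcan1 encodes an inhibitor of calcineurin, the phosphatase that activates NFAT, and one of its promoters is a known target of NFAT in other systems. RefSeq promoters (GRCm38.p6, 250 bases before to 50 after a gene's start) were found for 72 members. They are shown for Rcan1, with its 2 starts, and for 3 further members, so that the motif counts given next can be read in the sequence. These genes were picked by hand. They are among the members chosen again under every setting tried, but others of those, such as Aldh1a2, are not shown. The windows are thus examples and not a sample of the members. Motifs searched on both strands were AP-1 (TGANTCA), CRE (TGACGTCA), a heat shock element (GAANNTTC), an antioxidant response element (TGACNNNGC) and NFAT (GGAAAA), and capitals mark every match. The windows lie at chr16:92400029-92400328, minus strand, for the first Rcan1 start, chr16:92466120-92466419, minus strand, for the second, chr4:134238350-134238649, minus strand, for Cnksr1, chr9:121777357-121777656, plus strand, for Klhl40 and chr5:135887669-135887968, plus strand, for Hspb1.
Rcan1 start 1: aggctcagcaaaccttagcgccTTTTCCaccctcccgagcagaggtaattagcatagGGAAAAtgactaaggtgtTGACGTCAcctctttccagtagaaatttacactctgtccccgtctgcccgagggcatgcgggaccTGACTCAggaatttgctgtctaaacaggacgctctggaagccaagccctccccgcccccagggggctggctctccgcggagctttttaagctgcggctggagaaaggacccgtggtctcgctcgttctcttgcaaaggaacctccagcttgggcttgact
Rcan1 start 2: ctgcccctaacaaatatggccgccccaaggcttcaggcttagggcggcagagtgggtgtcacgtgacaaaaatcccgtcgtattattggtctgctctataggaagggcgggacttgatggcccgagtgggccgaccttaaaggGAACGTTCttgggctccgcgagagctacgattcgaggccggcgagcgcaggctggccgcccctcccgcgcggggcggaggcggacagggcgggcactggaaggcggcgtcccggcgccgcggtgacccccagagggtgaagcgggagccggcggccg
Cnksr1: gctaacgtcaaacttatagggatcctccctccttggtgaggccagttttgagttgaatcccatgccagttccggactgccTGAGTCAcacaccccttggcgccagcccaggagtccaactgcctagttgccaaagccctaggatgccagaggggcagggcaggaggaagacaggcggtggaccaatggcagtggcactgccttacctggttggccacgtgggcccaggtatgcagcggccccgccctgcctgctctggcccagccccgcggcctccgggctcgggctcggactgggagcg
Klhl40: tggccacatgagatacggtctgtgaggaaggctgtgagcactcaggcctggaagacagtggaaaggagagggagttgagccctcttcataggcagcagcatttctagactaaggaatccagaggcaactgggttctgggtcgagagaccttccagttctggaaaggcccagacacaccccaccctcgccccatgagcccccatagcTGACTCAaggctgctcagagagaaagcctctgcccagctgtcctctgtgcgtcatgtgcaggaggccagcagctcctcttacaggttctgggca
Hspb1: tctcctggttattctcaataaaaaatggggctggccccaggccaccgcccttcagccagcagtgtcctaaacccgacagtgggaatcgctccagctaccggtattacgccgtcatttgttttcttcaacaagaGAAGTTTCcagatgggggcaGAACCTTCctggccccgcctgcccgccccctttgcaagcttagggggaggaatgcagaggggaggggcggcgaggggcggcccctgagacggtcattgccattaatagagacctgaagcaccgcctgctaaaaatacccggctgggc

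The first Rcan1 window held 2 NFAT letters, 1 CRE and 1 AP-1 match, and the second held 1 heat shock element and none of the other letters. Cnksr1 and Klhl40 held 1 AP-1 match each, and Hspb1, a heat shock protein gene, held 2 heat shock elements. Over all members' promoters, 24 of 89 held the NFAT letters (27%, against 23.4% of 32851 promoters), 10 held AP-1 (11.2%, against 7.81%), 12 the antioxidant element (13.5%, against 12.4%), 6 the heat shock element (6.74%, against 7.86%) and 3 the CRE (3.37%, against 1.79%). Some AP-1 and antioxidant matches overlap, in 149 promoters of the table. A match is a description of letters and not a bound site, and windows without one say nothing of the factor.

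Several signalling members were not called against naive at either grade after the peak. Rcan1 read 1008, 914 and 728 in naive joints, 1398, 1008 and 973 without swelling, 3448, 2134 and 2948 at mild, 1551, 1543 and 804 at moderate and 979, 817 and 942 at severe swelling. All 3 mild signals lay above every other array, and the severe arrays overlapped the naive ones. Severe minus naive was 0.05 ± 0.24 (adjusted p = 0.865) and moderate minus naive was 0.50 ± 0.24 (adjusted p = 0.0865); without moderate replicate 3, the lowest of its group, the moderate call was made (adjusted p = 0.00405), as it was under quantile normalization and on the hybridization-control scale. Cnksr1 read 550.5, 593 and 531 in naive joints, 947, 730.1 and 822 without swelling, 2249.8, 1462 and 1751 at mild, 902, 735 and 593 at moderate and 411, 643 and 318 at severe swelling. Cnksr1 encodes a scaffold of Ras pathway signalling, and its mild arrays stood 0.69 above the highest naive, moderate or severe array. Its severe minus naive difference was -0.33 ± 0.22 (adjusted p = 0.211), and without severe replicate 2 it was called lower (adjusted p = 0.0168). At moderate swelling it was called higher on the hybridization-control scale and in a fit of only those groups (adjusted p = 0.0416 and 0.0394). Other members of this kind were Garem1, an adaptor of growth factor receptors, Phlda1, and Mafk, a small Maf partner of Nrf2. Their mild means exceeded naive by 0.75, 1.01 and 0.57, and none was called at moderate or severe swelling in the fit reported here. Without moderate replicate 3, Phlda1 was called higher at moderate (adjusted p = 0.0291) and Mafk lower at severe swelling (adjusted p = 0.0359); Mafk was also called without naive replicate 2 or without moderate replicate 1, under quantile normalization and with aligned medians. Phlda1 was called higher at moderate swelling on the hybridization-control scale, and Garem1 lower at both grades with averaged probe sets (adjusted p = 0.0146 and 0.0185).

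A pair of cyclic nucleotide genes fell below naive. Prkg1 encodes a cGMP-dependent protein kinase of smooth muscle and vessel walls, and Pde4b a phosphodiesterase that degrades cAMP in immune cells. Prkg1 read 496, 566 and 492 in naive joints, 812, 641 and 965 without swelling, 1383, 1152 and 1053 at mild, 467, 277 and 242 at moderate and 278, 226 and 336 at severe swelling. The mild arrays were the highest, the no-swelling arrays came next, and the severe arrays lay under every naive array. Its margin of 0.88 between the lowest mild array and the highest naive, moderate or severe array was the largest among the members. Prkg1 fell by 0.86 ± 0.21 at severe swelling (adjusted p = 0.00263) and by 0.69 ± 0.21 at moderate swelling (adjusted p = 0.0123), the second call being lost without moderate replicate 2 (adjusted p = 0.0509) or without moderate replicate 3 (adjusted p = 0.0721). Pde4b read 969, 1159 and 1526 in naive joints, 1792, 1257 and 1737 without swelling, 2323, 2454 and 2041 at mild, 1136, 710.0 and 624 at moderate and 521, 601 and 765 at severe swelling. Every severe array lay below every naive array. Severe minus naive was -0.93 ± 0.22 (adjusted p = 0.00198) and moderate minus naive was -0.58 ± 0.22 (adjusted p = 0.0355), with the moderate call lost without naive replicate 2, naive replicate 3, moderate replicate 2 or moderate replicate 3 in turn (adjusted p up to 0.17). On the hybridization-control scale neither gene was called at either grade. With probe sets averaged, Prkg1 lost its calls at moderate (adjusted p = 0.304) and severe swelling (adjusted p = 0.0848), and under quantile normalization Pde4b lost its call at moderate swelling (adjusted p = 0.0587). Tsc22d3, a glucocorticoid-induced regulator that restrains NF-κB, had a gap of only 0.10. Its mild signals were 2197, 2100.2 and 2206 and its severe signals 996, 1600.2 and 864, against 1908, 1925 and 1969.7 in naive joints. Without swelling it read 2284, 1968 and 1847, the first above every mild array. No other probe set of Tsc22d3 had its highest mean at mild swelling. On the probe set used, it fell by 0.79 ± 0.18 at severe swelling (adjusted p = 0.00145). Severe minus naive was -0.28 and not called on the hybridization-control scale (adjusted p = 0.535). The moderate minus naive difference was -0.45 ± 0.18 (adjusted p = 0.0451); it had the opposite sign, 0.05, on the hybridization-control scale, and the call was lost without 8 of the 15 arrays in turn, under quantile normalization, with no signal filter and with no intensity trend.

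Other signalling members stayed above naive. Card14 encodes a scaffold that activates NF-κB and is best known in keratinocytes. Card14 read 10, 4.2 and 12.9 in naive joints, 93.4, 71.1 and 78.5 without swelling, 435, 200 and 388 at mild, 159.7, 79.8 and 112 at moderate and 103.2, 85.8 and 116 at severe swelling. Naive signals were below the 40th percentile of their arrays, all CIA arrays were above them, and the mild arrays were the highest. Card14 rose by 2.38 ± 0.26 at moderate swelling (adjusted p = 2.12e-06) and by 2.24 ± 0.26 at severe swelling (adjusted p = 3.71e-06). Summed keratinocyte markers were lower at mild swelling, at 111 to 191, than in naive joints, at 236 to 293. Ptpn2 encodes a tyrosine phosphatase that limits JAK-STAT signalling. Ptpn2 read 752, 721 and 751 in naive joints, 1163, 968 and 1105 without swelling, 2079, 1751 and 2465 at mild, 1529, 1530.0 and 1084 at moderate and 1161, 1123 and 1435 at severe swelling. No naive array reached any array of another group. Ptpn2 rose by 0.87 ± 0.16 at moderate swelling (adjusted p = 0.000201) and by 0.72 ± 0.16 at severe swelling (adjusted p = 0.000943). Arid5a, which encodes an RNA-binding protein that stabilizes inflammatory mRNAs, had 11.7 to 14.7 in naive joints, 184 to 293 at mild and 144 to 165 at severe swelling. It rose by 2.55 ± 0.39 at moderate swelling (adjusted p = 5.05e-05) and by 2.54 ± 0.39 at severe swelling (adjusted p = 5.04e-05), and its lowest mild array was just above the highest moderate one, by 0.01.

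**Figure D3:**
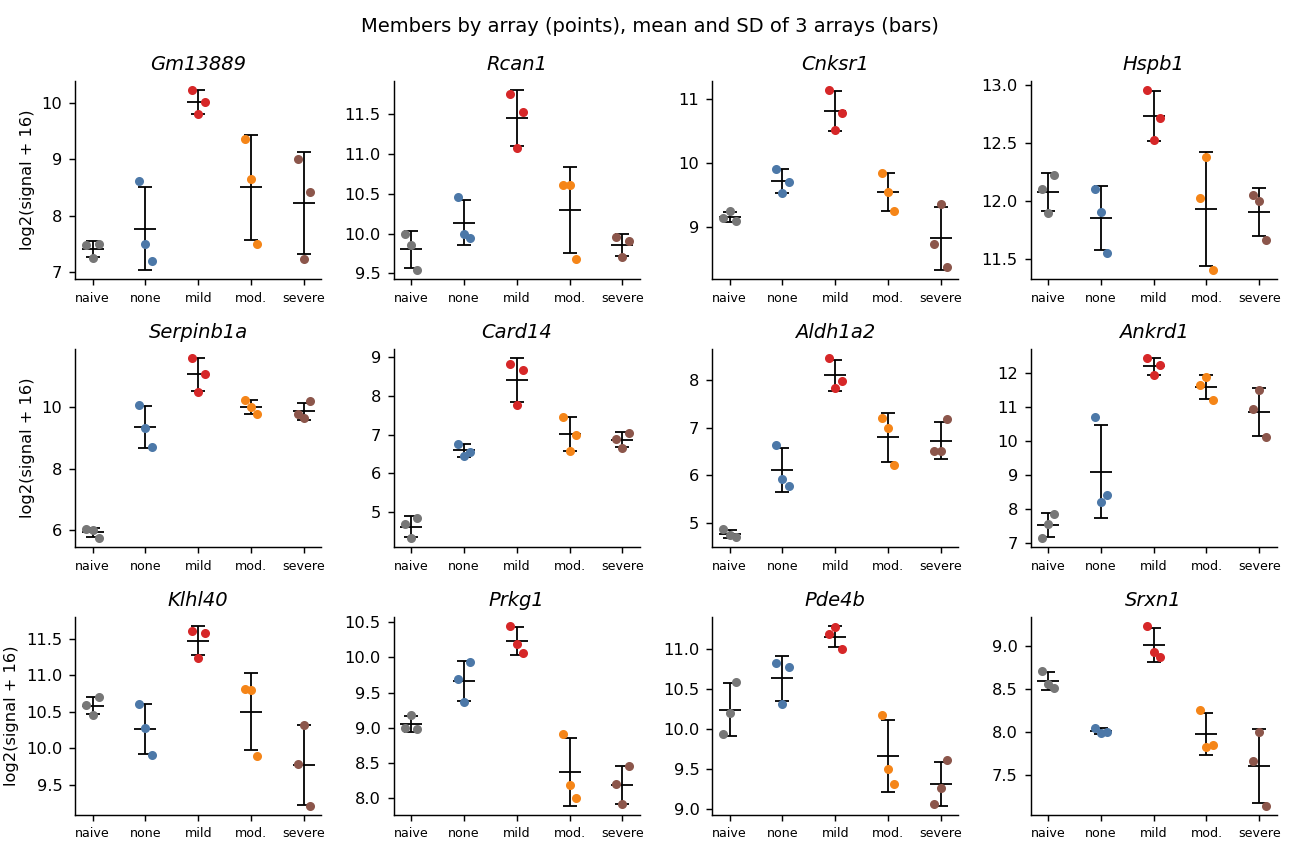
Signals of 12 members by array, in log2(signal + 16), with groups from naive to severe swelling on the x axis; points are arrays and bars the mean and SD of 3 arrays. Rcan1, Cnksr1 and Hspb1 overlap naive at severe swelling, Serpinb1a, Card14, Aldh1a2 and Ankrd1 stay above it, and Prkg1, Pde4b and Srxn1 lie under it.

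Several members act on proteases, clotting and matrix. Serpinb1a encodes an inhibitor of neutrophil serine proteases and had the largest mild minus naive difference of any member, 5.15. Serpinb1a read 49.1, 48.3 and 37.6 in naive joints, 1059.8, 629 and 400.1 without swelling, 3092, 1450.4 and 2179 at mild, 1182, 1013 and 861 at moderate and 861, 784 and 1154 at severe swelling. All CIA arrays were above all naive arrays, and only the mild arrays exceeded 1182. It rose by 4.08 ± 0.29 at moderate swelling (adjusted p = 9.98e-08) and by 3.95 ± 0.29 at severe swelling (adjusted p = 1.15e-07). The summed neutrophil markers, given above, were higher too, with mild replicate 3 the only mild array above any severe array; their part in the Serpinb1a signal was not tested. Thbd encodes thrombomodulin, the endothelial receptor that turns thrombin to anticoagulant action. Thbd read 389, 359 and 365 in naive joints, 579, 481 and 315 without swelling, 2144, 1600.2 and 1781 at mild, 1235, 951 and 564.2 at moderate and 489, 516 and 600.0 at severe swelling. Mild arrays were the highest, and moderate replicate 1 was the highest of the rest. Moderate minus naive was 1.20 ± 0.24 (adjusted p = 0.000496), called, and severe minus naive was 0.50 ± 0.24 (adjusted p = 0.0853), not called but called without moderate replicate 3 (adjusted p = 0.0328), on the hybridization-control scale and in a fit of only those groups. The summed endothelial markers Pecam1, Cdh5 and Kdr did not peak with it: they were 769 to 797 in naive joints, 748 to 890 at mild and 1139 to 1278 at severe swelling. Adamts1, a protease that cleaves cartilage proteoglycans, read 244 to 307 in naive joints, 702 to 883 at mild and 393 to 578 at severe swelling. It rose by 0.89 ± 0.19 at moderate swelling (adjusted p = 0.000797) and by 0.78 ± 0.19 at severe swelling (adjusted p = 0.0023).

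Fgl2, Clu, Nog, Pvr and Saa1 were called at neither grade in the fit reported here. Fgl2, a fibrinogen-like protein with prothrombinase activity, read 664, 479 and 394 in naive joints, 1181, 832 and 987 at mild and 417, 425 and 609 at severe swelling. Clusterin (Clu), an extracellular chaperone, read 808, 823 and 958 in naive joints, 2266, 1616 and 2202 at mild and 934, 846 and 1539 at severe swelling, and its no-swelling arrays, at 1555, 1596 and 886, had the next highest mean. Noggin (Nog), an antagonist of bone morphogenetic proteins, read 66.7, 55.3 and 50.9 in naive joints, 125, 129 and 114 at mild and 73.1, 54.0 and 53.7 at severe swelling. For all 3 genes the severe and naive arrays overlapped. Pvr, an adhesion molecule and receptor of lymphocyte ligands, had 200.4, 231 and 231 in naive joints, 534, 372 and 464 at mild and 188, 224 and 137 at severe swelling. Its lowest mild array cleared the highest moderate array by 0.01 only. The acute-phase gene Saa1 was dim, at 6.2 to 18 in naive joints, 39.1 to 61.1 at mild and 19.6 to 36.3 at severe swelling. Its moderate minus naive difference was 0.59 ± 0.25 (adjusted p = 0.052); it was called without naive replicate 1, moderate replicate 3 or severe replicate 3 in turn and under 5 other settings. With averaged probe sets Saa1 was called higher at severe swelling too (adjusted p = 0.0497), and Pvr was called higher at moderate (adjusted p = 0.00316) and severe swelling (adjusted p = 0.0298).

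Members known from skeletal muscle peaked at mild swelling while the summed muscle markers, given above, were lower there than in naive joints; whether the muscle share of the samples had a part in these values was not tested. Klhl40 encodes a kelch protein that stabilizes thin filament proteins. Klhl40 read 1535, 1390.4 and 1648 in naive joints, 1543, 1228 and 947 without swelling, 3112, 2406 and 3035 at mild, 1785, 1757 and 935 at moderate and 869, 1257 and 578 at severe swelling. Every mild array was above every other array, and every severe array was below every naive array. Severe minus naive was -0.81 ± 0.27 (adjusted p = 0.0174); the call was lost without naive replicate 3 (adjusted p = 0.0567) or without severe replicate 3 (adjusted p = 0.107), under quantile normalization (adjusted p = 0.0522) and on the hybridization-control scale (adjusted p = 0.5). Ankrd1 encodes a stretch- and injury-induced ankyrin repeat protein of the sarcomere. Ankrd1 read 127, 175 and 217 in naive joints, 1652, 281 and 328 without swelling, 5542, 3917 and 4799 at mild, 3197, 3816 and 2344 at moderate and 1965, 2889 and 1096 at severe swelling. No-swelling replicate 1 was far above the other no-swelling arrays, and moderate replicate 2 nearly reached the lowest mild array. Ankrd1 rose by 4.05 ± 0.49 at moderate swelling (adjusted p = 5.06e-06) and by 3.33 ± 0.49 at severe swelling (adjusted p = 3.19e-05). Hspb1, a small heat shock protein that protects muscle filaments and is made in other cells too, was high in every group. Hspb1 read 4374, 3799.8 and 4774 in naive joints, 4369.7, 3824 and 2982 without swelling, 7927, 5884 and 6699 at mild, 4136, 5296 and 2688 at moderate and 4218, 4066 and 3223 at severe swelling. Naive and severe arrays overlapped, and severe minus naive was -0.17 ± 0.21 (adjusted p = 0.52).

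The remaining muscle genes had smaller gaps. Flnc, encoding filamin C of the muscle Z-disc, read 2073, 1430.3 and 2066 in naive joints, 3032, 2396 and 2535 at mild and 1497, 1682 and 859 at severe swelling, and was called at neither grade, but at severe swelling with array quality weights (adjusted p = 0.043). Itga7, the laminin receptor of muscle fibres, read 613, 594 and 583 in naive joints, 775, 641 and 691 at mild and 443, 469 and 436 at severe swelling. Lrrc2, a gene of heart and skeletal muscle, read 529, 492 and 488 in naive joints, 765, 536 and 882 at mild and 172, 423 and 164 at severe swelling. Severe arrays of Itga7 and Lrrc2 thus lay below all naive arrays. Severe minus naive was -0.40 ± 0.14 (adjusted p = 0.0286) for Itga7, a call lost without 5 of the 15 arrays in turn, and -1.08 ± 0.31 (adjusted p = 0.0076) for Lrrc2. Pdk4, an inhibitor of pyruvate dehydrogenase that shifts muscle to fat oxidation, read 3594, 4330.3 and 4172 in naive joints, 5564, 5045 and 5459.5 at mild and 2719.7, 3519.9 and 2904 at severe swelling. Its severe minus naive difference was -0.41 ± 0.14 (adjusted p = 0.0229); this call was lost without naive replicate 2, naive replicate 3, severe replicate 1 or severe replicate 3 in turn and under quantile normalization. On the hybridization-control scale the severe minus naive values of Itga7 and Pdk4 had the opposite sign, at 0.10 and 0.11. Lrrc2 was not called on that scale (adjusted p = 0.184). Without swelling, Flnc read 2701, 1645 and 1870, Lrrc2 676, 469 and 635, and Pdk4 5412, 4764 and 4564. In each of these genes some no-swelling signals exceeded the lowest mild array. The other Lrrc2 probe set averaged 8.83 without swelling and 8.78 at mild swelling, on the log2 scale. Of 30 genes listed for muscle stress, atrophy and denervation, 3 were members (Ankrd1, Flnc and Hspb1), and 9 had their highest group mean at mild swelling, against 10% of all genes. Of 29 tested, 15 rose and 6 fell at moderate swelling (30.8% and 23.7% of all genes did), and 14 rose and 7 fell at severe swelling (32.2% and 22.9%). The 22 muscle contractile genes had 0 members and 0 with their highest mean at mild swelling; 18 fell at moderate and 9 at severe swelling, and none rose.

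Of the redox and protein-quality members, Srxn1, Txnrd1 and Dnajb9 fell below naive at severe swelling. Srxn1 encodes sulfiredoxin, which repairs oxidized peroxiredoxins. Srxn1 read 405, 361 and 349 in naive joints, 248.8, 239 and 239.7 without swelling, 589, 473 and 453 at mild, 291, 211 and 215 at moderate and 187, 241 and 125 at severe swelling. The no-swelling, moderate and severe arrays all lay under the naive ones, so on this probe set mild swelling was the only CIA grade above naive. Its other probe sets were mixed. While 1 met the range condition, another had a moderate mean of 8.12 against 8.09 in naive joints, on the log2 scale. A further probe set had a mild mean of 6.07, under its naive mean of 6.81. Srxn1 fell by 0.62 ± 0.18 at moderate swelling (adjusted p = 0.00997) and by 0.99 ± 0.18 at severe swelling (adjusted p = 0.000271); neither was called on the hybridization-control scale. Txnrd1, thioredoxin reductase, read 1292, 1302 and 1251 in naive joints, 1429.8, 1337 and 1388 at mild and 924, 962 and 784 at severe swelling. It fell by 0.52 ± 0.13 at severe swelling (adjusted p = 0.00218). On the hybridization-control scale that difference was -0.02 and not called (adjusted p = 0.972). The other Txnrd1 probe sets averaged 7.89 and 6.32 at mild swelling, under their naive means of 8.16 and 6.42 on the log2 scale. Of 9 antioxidant genes tested, these 2 included, 6 fell and 1 rose at each of the moderate and severe grades, where 23.7% and 22.9% of all genes fell; Srxn1 is among the 6 at both grades and Txnrd1 at severe swelling. Dnajb9, a co-chaperone of the endoplasmic reticulum, read 1072, 1116 and 1106 in naive joints, 1819.6, 1882 and 1814 at mild and 716, 996 and 784 at severe swelling. Its severe minus naive difference was -0.41 ± 0.14 (adjusted p = 0.0239), a call lost without naive replicate 2, naive replicate 3, severe replicate 1 or severe replicate 3 in turn and under quantile normalization, and of the opposite sign, 0.10, on the hybridization-control scale. Zfand2a, a stress-induced partner of the proteasome, read 167, 187 and 185 in naive joints, 439, 328 and 434 at mild and 309.7, 265 and 203 at moderate swelling. Its moderate minus naive difference was 0.48 ± 0.16 (adjusted p = 0.0183), lost without naive replicate 1, moderate replicate 1 or moderate replicate 2 in turn, under quantile normalization and with aligned medians. The nucleolar gene Nolc1 read 228, 216 and 206 in naive joints, 256, 264 and 263 at mild and 161, 162 and 181 at severe swelling. Severe minus naive was -0.34 ± 0.14 (adjusted p = 0.0462); the call was lost without 9 of the 15 arrays in turn, with no signal filter and with no intensity trend, and the sign turned to 0.13 on the hybridization-control scale.

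Aldh1a2, Mid1ip1 and Krt80 rose at both later grades. Aldh1a2 encodes an enzyme that makes retinoic acid. Aldh1a2 read 13.1, 10.9 and 9.9 in naive joints, 84.4, 45.1 and 38.6 without swelling, 339.7, 214 and 239 at mild, 131, 112 and 58.3 at moderate and 75.3, 75.0 and 129 at severe swelling. Naive arrays were dim, and the lowest mild array stood 0.65 above the highest naive, moderate or severe array. Aldh1a2 rose by 2.03 ± 0.28 at moderate swelling (adjusted p = 1.67e-05) and by 1.96 ± 0.28 at severe swelling (adjusted p = 2.28e-05). Mid1ip1, a regulator of fatty acid synthesis, followed the same order. Mid1ip1 read 503, 469 and 516 in naive joints, 1221, 917 and 899.6 without swelling, 3349, 2700.3 and 2742 at mild, 2015, 1311 and 1115 at moderate and 1358, 1294 and 1056 at severe swelling. All CIA arrays exceeded the naive ones. It rose by 1.5 ± 0.19 at moderate swelling (adjusted p = 6.72e-06) and by 1.28 ± 0.19 at severe swelling (adjusted p = 2.91e-05). Summed adipocyte markers were 248.6 to 665 at mild swelling, against 825 to 1764 in naive joints. Krt80, a type II keratin, read 105, 73.7 and 82.6 in naive joints, 428, 456 and 429 at mild and 188, 159 and 121 at severe swelling. It rose by 1.22 ± 0.28 at moderate swelling (adjusted p = 0.00178); severe minus naive was 0.73 ± 0.28 (adjusted p = 0.0384), a call lost without naive replicate 2, naive replicate 3, severe replicate 1 or severe replicate 2 in turn (adjusted p up to 0.135). The Krt80 call at severe swelling was also lost with a pseudocount of 64, with no signal filter, under quantile normalization and with aligned medians (adjusted p up to 0.119).

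The member with the largest gap, Gm13889, is protein-coding in RefSeq and is described here by its values only. Gm13889 read 164, 137 and 165 in naive joints, 375, 166 and 132 without swelling, 1182, 872 and 1013 at mild, 638, 388 and 166 at moderate and 499.7, 135 and 327 at severe swelling. The mild arrays were the highest by a wide margin, and moderate and severe arrays were spread from the naive level upward. Moderate minus naive was 1.09 ± 0.45 (adjusted p = 0.0522) and severe minus naive was 0.81 ± 0.45 (adjusted p = 0.144); neither was called, and both depended on the setting. The moderate difference was called without any 1 of no-swelling replicate 1, no-swelling replicate 3, moderate replicate 3, severe replicate 1 or severe replicate 2 (adjusted p down to 0.00657) and under 6 other settings, the hybridization-control scale and the replicate block among them. The severe difference was called without severe replicate 2 (adjusted p = 0.0192), on the hybridization-control scale and with averaged probe sets. Togaram2, a gene of microtubule-binding domains, had the lowest severe minus naive difference of any member. Togaram2 read 59.6, 84.6 and 60.9 in naive joints, 87.3, 67.3 and 76.7 without swelling, 108, 125 and 94.1 at mild, 59.2, 26.7 and 17.6 at moderate and 10, 18 and 19.9 at severe swelling. The severe arrays and moderate replicate 3 were the dimmest. It fell by 1.40 ± 0.25 at severe swelling (adjusted p = 0.000176) and by 0.81 ± 0.25 at moderate swelling (adjusted p = 0.0113), the second call being lost without naive replicate 2 or moderate replicate 3. Unc50, a Golgi membrane protein gene, read 326, 446 and 380.0 in naive joints, 576, 659 and 710.3 at mild and 507, 170.2 and 566 at severe swelling, its severe arrays spread on both sides of naive. The non-coding Hectd2os and E230013L22Rik were dim, at 50.7 to 86.3 and 34.4 to 42.5 at mild swelling, against 14.4 to 22.1 and 8.90 to 11.6 in naive joints. Tmc8 read 91.8, 113 and 84.5 at mild swelling, against 62.4, 21.9 and 64.5 in naive joints, and Nudt6 read 350.1, 272 and 309 at mild swelling, against 146, 190.4 and 154 in naive joints. None of these 5 was called at moderate or severe swelling in the fit reported here. Hectd2os was called at moderate swelling without moderate replicate 2 (adjusted p = 0.0274) and on the hybridization-control scale (adjusted p = 0.0459). Nudt6 was called higher at moderate swelling in a fit of only those groups (adjusted p = 0.048), and lower at moderate (adjusted p = 0.00562) and at severe swelling (adjusted p = 0.00131) when its probe sets were averaged.

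**Figure D4:**
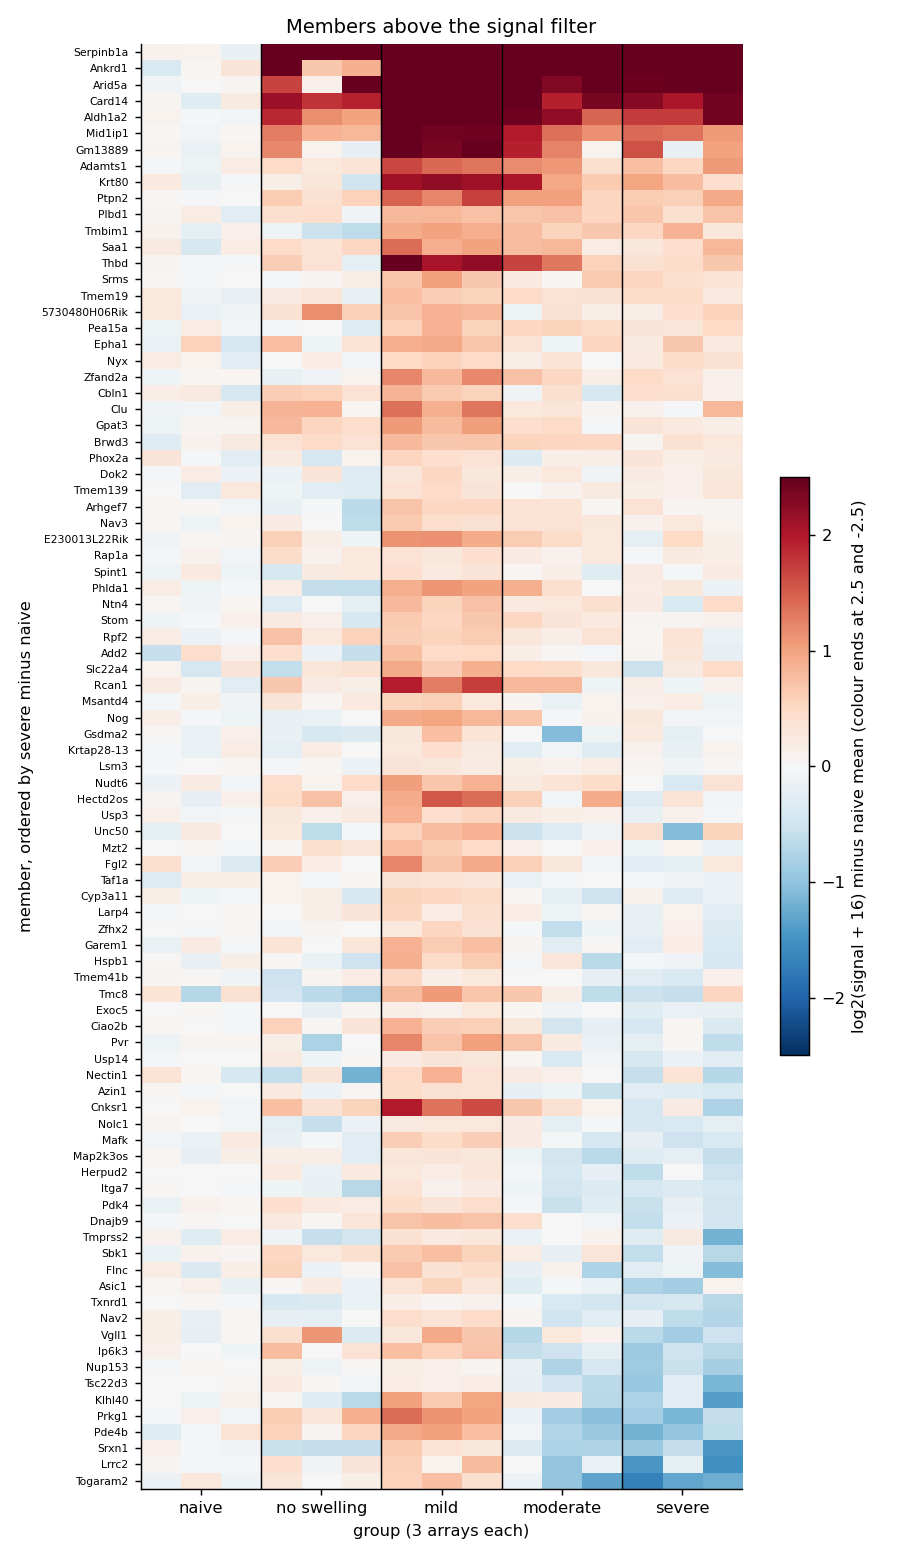
Members above the signal filter (89 rows) on 15 arrays (columns, naive to severe), as log2(signal + 16) minus the gene's naive mean, ordered by severe minus naive, on a colour scale that saturates 2.5 from the naive mean on either side. In each row every mild column is above the naive, moderate and severe columns, as the rule requires; over all 100 members, 22 had 1 no-swelling array at or above the lowest mild array and 5 had 2. The severe columns run from red at Serpinb1a to blue at Togaram2.

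The no-swelling arrays took no part in the range condition, but their mean entered the ranking. In 73 members all 3 no-swelling arrays lay below the lowest mild array, in 22 members 1 of them reached it and in 5 members 2 did. No swelling against naive asks whether a gene was already higher in knees of immunized mice that were not swollen. In that comparison 4 of 89 members rose (4.49%, against 1.52% of all genes tested) and 0 fell (against 1.8%) in the limma fit. At an unadjusted p under 0.05, 18 members were higher and 5 lower, and of all 14310 genes tested 1277 were higher and 1426 lower. The median difference was 0.07 for members and -0.01 for all genes. The 4 were Serpinb1a, at 3.44 ± 0.29 (adjusted p = 1.55e-05), Card14, at 1.96 ± 0.26 (adjusted p = 0.000803), Aldh1a2, at 1.35 ± 0.28 (adjusted p = 0.0177), and Mid1ip1, at 0.99 ± 0.19 (adjusted p = 0.00967). Their no-swelling arrays all lay above their naive arrays and below their mild arrays. Among all 124 genes of the range condition, where the no-swelling mean had no part in the choice, 9 of 112 tested rose (8.04%) and 0 fell; the other 5 were Bhlhe40, Art5, Irgm2, Adh1 and Zfp367, named after their values were seen. The naive arrays serve in both the range condition and this comparison, so these shares are not independent of it. The count of members was 2 without no-swelling replicate 1 and 7 without no-swelling replicate 2 or without mild replicate 2, and the count of range condition genes was 14 without no-swelling replicate 2. Over all genes tested, 63, 202 and 322 rose without those arrays, in that order, against 217 with every array. Serpinb1a and Card14 stayed called without each array in turn; Aldh1a2 lost its call without any of the naive arrays or without no-swelling replicate 1 (adjusted p up to 0.0965), and Mid1ip1 without no-swelling replicate 1 (adjusted p = 0.0632). On the hybridization-control scale neither Aldh1a2 nor Mid1ip1 was called, and Aldh1a2 was not called with a pseudocount of 64 either. Among the members not called, Ankrd1 had 1.58 ± 0.49 (adjusted p = 0.0904) and Arid5a 1.44 ± 0.39 (adjusted p = 0.0567). Both were called without no-swelling replicate 2 (adjusted p = 0.0389 and 0.000411), on the hybridization-control scale and with array quality weights. Ptpn2 had 0.53 ± 0.16 (adjusted p = 0.0775) and Gpat3 0.60 ± 0.16 (adjusted p = 0.0515). Arid5a and Ptpn2 were called without mild replicate 2 (adjusted p = 0.0466 and 0.0474). Arid5a was called with a pseudocount of 1 too, and Ptpn2 with averaged probe sets, with array quality weights and in a fit of only those groups.

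Severe against moderate swelling asks whether the members' signals were lower still after moderate swelling. No member was called, and 0 of 14310 genes were, in the limma fit (0% in either direction; smallest adjusted p of any gene 0.742). At an unadjusted p under 0.05, 0 members were higher and 9 lower, and over all genes 492 were higher and 393 lower. Severe means were below moderate means in 71 of 89 members (79.8%, against 43.9% of all genes tested), with a median difference of -0.16 for members and 0.03 for all genes. Both groups had been held below mild swelling by the rule, and these shares are descriptions without a test. Of the muscle members, Klhl40 had -0.73 ± 0.27 and Lrrc2 -0.70 ± 0.31, neither called, and the 7 summed muscle markers were 39331 to 55915 at severe and 25003 to 41615 at moderate swelling.

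Of the members, 11 (11%) were on any of 33 gene lists drawn up for joint tissue, leukocytes and stress responses, against 557 of all 18194 genes (3.06%). The lists were drawn up with earlier results of these data known, so nothing is read from the distance between these shares. They were Adamts1, Ankrd1, Flnc, Hspb1, Itga7, Tsc22d3, Pdk4, Saa1, Nolc1, Txnrd1 and Srxn1. No member was on the lists of immediate-early transcription factors, acute cytokines, chemokines, neutrophil genes, macrophage genes, fibroblast collagens, interferon response genes or cell cycle genes. These lists are short, and nothing is read from those zeros. Of 24 chemokines tested, 20 rose at moderate and 20 at severe swelling, and of 16 genes of fibroblast collagens and matrix 12 and 16 rose, where 30.8% and 32.2% of all genes did. The group mean was highest at mild swelling in 10% of all genes. It was so in 7 of 19 glucocorticoid-responsive and metallothionein genes, 8 of 18 ribosome biogenesis genes and 9 of 30 muscle stress genes. Several inflammation lists also had more than 10% of their genes highest at mild swelling, with 6 of 25 chemokines, 5 of 21 macrophage genes, 6 of 30 immediate-early genes and 4 of 21 feedback genes of JAK-STAT and NF-κB signalling. Other lists had less than 10%, with 1 of 21 neutrophil genes, 0 of 18 interferon response genes, 0 of 16 fibroblast collagen and matrix genes and 0 of 19 cell cycle genes.

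Other probe sets of the same genes gave a second reading of the same RNA on the same arrays. For 49 members the array carried 114 further probe sets, of which 20 met the range condition (17.5%, against 82 of 16650 or 0.492% for other genes) and 46 had their highest mean at mild swelling (40.4%, against 10.1%). The 20 belonged to 16 genes, among them Rcan1, Serpinb1a, Hspb1, Prkg1, Pde4b, Ptpn2, Srxn1, Fgl2, Clu and Flnc. Of the 86 further probe sets above the signal filter, 28, of 19 genes, had a mild mean under their naive mean; among these genes were Pde4b, Srxn1, Txnrd1, Tsc22d3, Nolc1, Garem1, Nudt6 and Pvr. Pde4b, Srxn1, Pvr and Stom were thus among both the 16 and the 19 genes. For Nudt6 the other probe set averaged 6.72 at mild swelling, against 7.66 in naive joints, on the log2 scale, and its moderate minus naive difference was -0.53 when probe sets were averaged. Pvr had 1 further probe set that met the range condition and 1, above the filter, with 4.77 at mild swelling against 5.14 in naive joints; averaged over its probe sets, its severe minus naive difference was 0.45, of the opposite sign.

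Membership of the lower ranks depended on the processing, and the leading ranks less so. Adding 1 or 64 before the logarithm kept 100 and 97 members, quantile normalization 74, averaging probe sets 70, aligning array medians 64 and scaling on the hybridization controls 29. Of the leading 30, those settings kept 30, 30, 28, 24, 24 and 15. Leaving out 1 array kept 49 to 98 members: 49 without mild replicate 2 or without mild replicate 3, 64 without mild replicate 1 and 65 without moderate replicate 1. The range condition was then met by 296, 304, 209 and 200 genes, in that order. All of the leading 30 were chosen again without each array in turn. Leaving out an array can only loosen the range condition, so no member could fail it. Members were lost only by falling past rank 100. Genes with large gaps were thus likely to return in any case, and nothing is read from their return. The 10 members kept under every setting and without every array were Gm13889, Card14, Aldh1a2, Rcan1, Cnksr1, Serpinb1a, Klhl40, Hectd2os, Hspb1 and Prkg1.

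**Figure D5:**
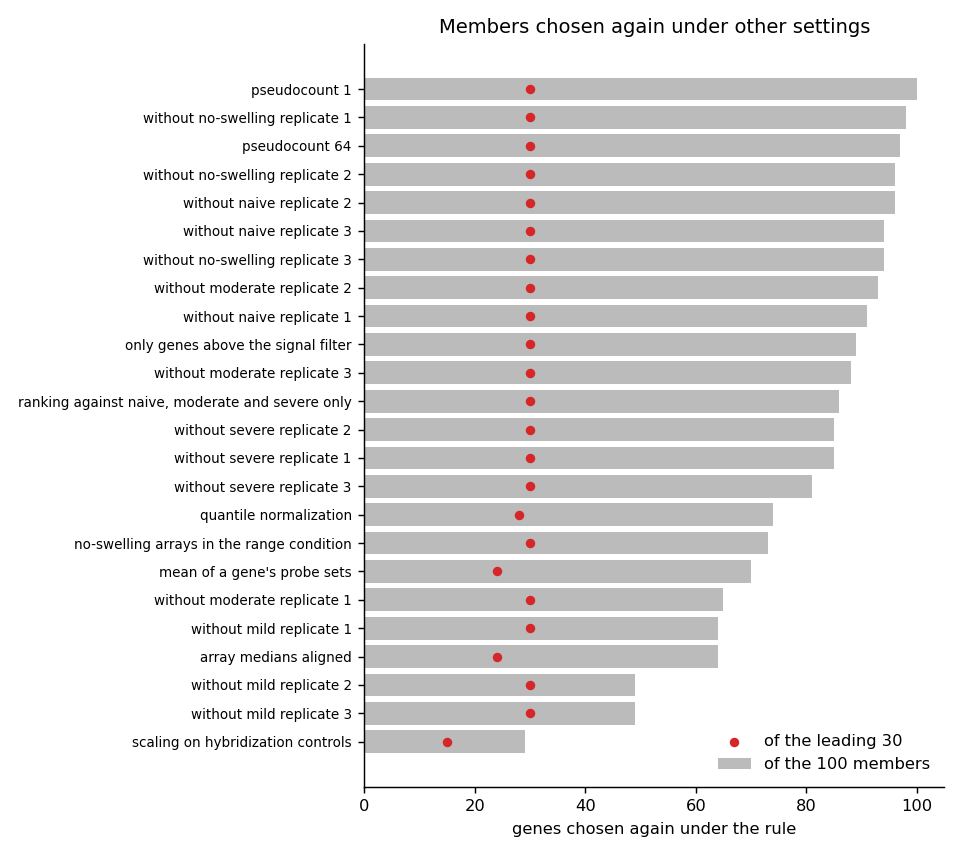
Members chosen again by the same rule under each other setting (rows); grey bars count the 100 members and red points the leading 30, with the number of genes on the x axis. The bars run from 29 with scaling on the hybridization controls to 100 with a pseudocount of 1. The points stay at 30 without each array in turn, where no member could fail the range condition.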

How the data were processed

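Total RNA of mouse knee joint synovium was hybridized to Affymetrix arrays after biotin labelling, with 1 array for each sample (per the labels' protocols). Per probe set the deposited file holds an intensity, which came from MAS5, according to the submitters' processing notes, with no version named. Trimming 2% at each end left a mean of 150 on every array, so no further scaling was applied. Probe sets were named through the platform annotation, which can be old: 34958 of 45101 had 1 symbol, 932 had several and 9211 were unnamed. Each of 18194 genes was represented by its probe set with the highest mean.

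The deposited intensity values were transformed to log2(signal + 16). Genes above their array's 40th percentile on at least 3 of 15 arrays were tested, 14310 of them. The 5 group means were fitted with limma 3.58.1 in R 4.3.3, with an intensity trend, two-sided, and p-values were adjusted by Benjamini-Hochberg over all genes tested of a comparison; calls had an adjusted p under 0.05, and errors after ± are limma's SE unless given as SD. With 3 arrays in each of 2 groups, exact permutation could reach no p under 0.1. The fit was tested on simulated data. The rule's highest other group mean was read over all 4 other groups. Arrays limit precision by their number.

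Named genes were the 30 members of largest gap, every member on a gene list, the 3 ranks on each side of the edge of the choice, members called without swelling, and the 6 highest and 6 lowest in severe minus naive. Members whose other probe sets went against the one used were not all among them, so the counts of calls among named genes leave some out. The members, lists, rule and settings were chosen with earlier results of these data known. Other settings tried were a pseudocount of 1 or 64, all genes unfiltered or a 60th percentile filter, quantile normalization, aligned medians, scaling on 9 hybridization control probe sets, averaged probe sets, no trend, array weights, a replicate block, fits of the 2 compared groups alone, and leaving out each array in turn. Motifs were counted with Python 3.11.15.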

Additional observations from a re-analysis of the deposited data

How the results depend on the processing

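Of the 100 members, 64 were kept with aligned medians and 29 with scaling on hybridization controls, and leaving out 1 array kept 49 to 98 and let 125 to 304 genes meet the range condition, which 74 met when the no-swelling arrays were added to it. The members that fell at moderate swelling, 8 as reported, were 5 with no signal filter, 0 on the hybridization-control scale and 3 to 10 when 1 array was left out. Those that fell at severe swelling, 17 as reported, were 1 on the hybridization-control scale and 10 to 19 when 1 array was left out, and the 14 that rose were 9 with aligned medians. Without swelling, the 4 members that rose were 9 with array quality weights, 7 in a fit of only the 2 groups and 2 to 7 when 1 array was left out. The 9 range condition genes that rose were 5 on the hybridization-control scale, 18 with array quality weights and 6 to 14 when 1 array was left out. Over all genes tested, 217 rose without swelling as reported. That count moved too, to 541 with array quality weights, 284 in the fit of only the 2 groups and 36 on the hybridization-control scale. In the fit of only the 2 groups, 1 member, which is also the 1 range condition gene, fell, as did 384 of all genes tested. The hybridization-control scale gave 5294 higher and 777 lower genes at severe swelling and 4920 higher and 750 lower at moderate swelling, against 4613 and 3277, and 4402 and 3398, as reported; with aligned medians the severe split was 3650 higher and 4088 lower. Of members called, 3 of 24 at moderate and 6 of 31 at severe swelling changed sign under a rescaling, Map2k3os, Nup153, Azin1 and Sbk1 among them. Of the named genes, signs turned on the hybridization-control scale for Tsc22d3 at moderate swelling, to 0.046, and at severe swelling for Dnajb9 (0.10), Nolc1 (0.13), Itga7 (0.10), Pdk4 (0.11) and Ddx19b (0.060). They turned with averaged probe sets for Nudt6 (-0.53) and Slu7 (-0.39) at moderate swelling and for Pvr (0.45) and Slu7 (-0.43) at severe swelling; the causes were not tested. Of 43 calls among the named genes, 29 held without each array in turn and 21 under every other setting.

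The replicate numbers were not taken to pair the samples: deviations of same-numbered arrays correlated between -0.50 and 0.33 over 30 pairs, 5 of them over 0.1, and 0 of 15 arrays correlated best with their own number. With the number as a block, 4 members rose without swelling, 17 rose and 7 fell at moderate swelling, 13 rose and 17 fell at severe swelling and 0 were called between severe and moderate swelling. Over all genes tested, 129 then rose without swelling, 4291 rose and 3262 fell at moderate swelling, and 4478 rose and 3187 fell at severe swelling. The number of arrays limits precision: the smallest difference called among the named genes was that of Nolc1, which fell by 0.34 at severe swelling.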

Other observations

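Beyond the named genes, 10092 probe sets without a single gene symbol were measured, and 33 of them met the same range condition of every mild array above every naive, moderate and severe array. They are not described further, since no gene could be given to them. Mild replicate 1 was the highest mild array in 50 members, replicate 2 in 35 and replicate 3 in 15.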
